A study of Homo sapiens with 6 samples.

Results

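PDE4A, PDE4B, PDE4C, PDE4D, PDE3A, PDE3B, PDE7A, PDE8A and PDE8B encode the cyclic AMP phosphodiesterases described here, 9 genes of the 60483 rows of the count table, found by matching each row's Ensembl identifier to its symbol. They were selected on values measured in these libraries, namely a lower PDE4B count in HELLS KO than in HAP1 cells and a PDE4B count that differed between replicate 3 and the other replicates. The differences between genotypes and between replicates are therefore given for these 9 genes as a description, without p-values for single members, and counts of members called are printed beside the share of all genes with nothing read from them. RNA-seq counts were available from 3 libraries of HAP1, a near-haploid human line derived from a chronic myelogenous leukemia (the C631 stock, wild type for HELLS), and from 3 libraries of HELLS KO. HELLS KO is 1 commercially edited HAP1 clone with an inserted base pair in exon 3 of HELLS, a chromatin remodeler of the SNF2 family, so the effect of the genotype and that of the clone cannot be told apart. All 6 cultures were under normal growth without a treatment. In the fits with a batch term, replicate 3 of both genotypes was treated as a batch apart from replicates 1 and 2.

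Cyclic AMP is made by adenylyl cyclases after receptors coupled to the G protein Gs are engaged, and it acts through protein kinase A, EPAC proteins and cyclic nucleotide-gated channels. Phosphodiesterases end the signal by hydrolysing the cyclic nucleotide. PDE4 enzymes are specific for cyclic AMP and are the targets of rolipram and roflumilast, PDE3 enzymes are inhibited by cyclic GMP, and PDE7 and PDE8 enzymes hydrolyse cyclic AMP and are insensitive to rolipram. PDE4B is known for its role in immune cells and in the brain, and the PDE4 genes each give rise to long and short isoforms from several promoters.

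Total counts ranged from 13641237 to 14859360 in replicates 1 and 2 and were 24126357 and 24400187 in replicate 3 of HAP1 and HELLS KO. The chi-square per gene between libraries of a genotype was 2.32 for HAP1 replicates 1 and 2 and 13.8 to 58.7 for the other pairs. No library repeated the counts of another, but these values do not show whether HAP1 replicates 1 and 2 were independent. HELLS itself had 1444, 1488 and 3671 counts in the HAP1 libraries against 1410, 1375 and 2802 in HELLS KO. The groups overlapped in CPM, and a count per gene does not show an insertion of 1 base, so it does not check the labels. Of the 11 markers of blood cells, from which the line was derived, 5 had no more than 3 counts in every library, with SPI1 and HBG1 at 0, while KIT had 32 to 933 counts and CD33 2 to 19. Of the 5 fibroblast markers DCN and LUM were at 0, while COL1A1 had 600 to 1103 counts and PDGFRB 12 to 32. The T cell marker CD3E was at 0, and both endothelial markers had at most 2 counts.

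The starts of transcription of PDE4B and PDE4A are shown because PDE4B had the largest difference between genotypes of the 9 genes and PDE4A the highest level of the PDE4 genes. Each stretch is the 250 bases before an annotated start (RefSeq, GRCh38.p14, + strand) and overlaps no annotated exon, and capitals mark CG dinucleotides. The PDE4B starts lie in the gene at chr1:65792514-66374579 or just before it, the PDE4A start in the gene at chr19:10416773-10469630.
PDE4B, chr1:65792260-65792509: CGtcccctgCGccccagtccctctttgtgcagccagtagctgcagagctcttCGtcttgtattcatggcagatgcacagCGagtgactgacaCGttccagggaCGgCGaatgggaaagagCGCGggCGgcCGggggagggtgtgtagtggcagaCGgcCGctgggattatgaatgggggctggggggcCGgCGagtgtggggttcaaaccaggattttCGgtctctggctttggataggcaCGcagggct
PDE4B, chr1:65912995-65913244: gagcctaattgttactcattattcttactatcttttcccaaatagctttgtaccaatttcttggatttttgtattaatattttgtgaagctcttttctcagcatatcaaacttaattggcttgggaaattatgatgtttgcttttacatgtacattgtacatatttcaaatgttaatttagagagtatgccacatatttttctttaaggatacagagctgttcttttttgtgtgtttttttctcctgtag
PDE4A, chr19:10420288-10420537: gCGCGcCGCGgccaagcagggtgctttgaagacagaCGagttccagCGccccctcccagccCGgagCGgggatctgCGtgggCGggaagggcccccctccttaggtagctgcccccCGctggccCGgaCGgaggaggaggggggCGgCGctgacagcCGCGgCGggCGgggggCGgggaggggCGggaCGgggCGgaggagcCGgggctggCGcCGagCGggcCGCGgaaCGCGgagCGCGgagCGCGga

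The first PDE4B stretch holds 17 CG dinucleotides, the second 0 and the PDE4A stretch 35. In windows of 300 bases, from 250 before to 50 after each start, the 6 PDE4B windows held 0 to 21 CG dinucleotides and the 5 PDE4A windows 3 to 40, beside a median of 14 over 35116 windows of all genes. The cyclic AMP response element, searched as TGACGTCA, which reads the same on both strands, was found in 1 of 31 windows of 7 members, that of PDE4A at chr19:10416523-10416822, and in 1.85% of all windows. Its shorter form, TGACG on either strand and including the full element, was found in 3 of the 31 windows and in 24.6% of all windows. None of the PDE4B windows held either of them.

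PDE4B was the member that differed most between genotypes, and it was lower in HELLS KO in all 3 replicate numbers. It had 50, 42 and 250 counts in HAP1 replicates 1, 2 and 3, against 10, 4 and 28 in the replicates of HELLS KO. Scaled by library size with TMM, these are 3.52, 3.06 and 10.4 CPM in HAP1 and 0.687, 0.280 and 1.15 CPM in HELLS KO. Every HAP1 library lay above every HELLS KO library, with replicate 3 the highest of its genotype in both. The group means were 5.66 CPM ± 4.13 (SD, n = 3) in HAP1 and 0.706 CPM ± 0.435 (SD, n = 3) in HELLS KO, and 10.1% of all tested genes had groups that did not overlap in this way. In bulk libraries, fewer cells with PDE4B RNA and less PDE4B RNA per cell cannot be told apart.

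The size of the PDE4B difference was compared within each replicate number. HAP1 exceeded HELLS KO by 5.12, 10.9 and 9.06 times in replicates 1, 2 and 3. As HELLS KO over HAP1, the ratios were 0.195 (95% interval 0.0584 to 0.520), 0.0917 (0.0104 to 0.375) and 0.110 (0.0586 to 0.192), by the exact binomial interval. The intervals describe the precision of each ratio and are no test. They cover counting error only, and every 2 counts were taken as 1 read pair for them, since genes with 2 counts outnumbered genes with 1 count by 1.56 to 2.26 times in every library. In the fit by edgeR to all 6 libraries, the log2 fold change of HELLS KO over HAP1 was -2.95 (SE 0.66), or 7.72 times higher in HAP1. It lay between -3.55 and -2.14 when single libraries were left out, and the value of -2.14 was reached without HAP1 replicate 3. Without HELLS KO replicate 3 it was -3.55.

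**Figure D1:**
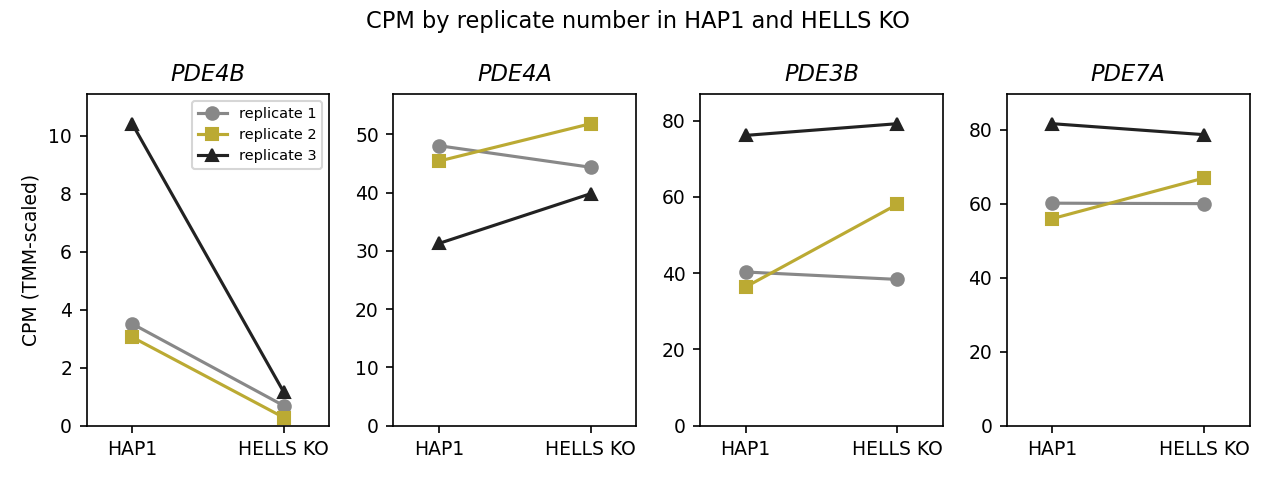
CPM of PDE4B, PDE4A, PDE3B and PDE7A (TMM-scaled, linear axes from 0, one scale per gene) in HAP1 and HELLS KO, with a line joining libraries of the same replicate number. The PDE4B line falls in all 3 replicates, from 10.4 to 1.15 CPM in replicate 3, whereas the lines of the other genes do not share a direction.

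A gene was called where the adjusted p of edgeR's quasi-likelihood test was under 0.05 and the absolute log2 fold change at least 1. In the fit without a replicate term, 0 of the 7 members that passed the filter on low counts were called, beside 2.22% of the 17925 genes tested, and 1 member, PDE4B, had an unadjusted p under 0.05, beside 6.59% of all genes. With the replicate number as a block, 1 of 7 members was called, PDE4B, beside 3.51% of all genes. DESeq2 called 1 of 9 members, PDE4B, beside 2.6% of 25757 genes, and a fit to replicates 1 and 2 only called PDE4B as 1 of 7, beside 2.47% of 17961 genes. Nothing is read from these counts, since the contrast chose the members.

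The other PDE4 genes differed by less than their spread. PDE4A, which had the highest level of the PDE4 genes, had 683, 624 and 750 counts in the HAP1 libraries against 645, 740 and 969 in HELLS KO. Per length these were 7.16, 6.76 and 4.60 FPKM in HAP1 and 6.57, 7.60 and 5.92 FPKM in HELLS KO. The groups overlapped, with the lowest level in replicate 3 of both genotypes, and the log2 fold change was 0.13 (SE 0.20). PDE4C had 8 to 19 counts in every library, overlapping groups and a log2 fold change of -0.42 (SE 0.51). PDE4D, the gene of the widest genomic span among the 9, had 7, 0 and 15 counts in the HAP1 libraries against 2, 0 and 15 in HELLS KO and did not pass the filter. A library with 0 counts was taken to allow up to 3 counts, or between 0.123 and 0.218 CPM. That limit would be higher where 2 counts are 1 read pair. The levels of PDE4D thus lay near the limit of this depth.

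PDE3B was the more abundant of the PDE3 genes, which act in insulin-sensitive tissues and in the heart. It had 573, 500 and 1826 counts in the HAP1 libraries against 558, 829 and 1928 in HELLS KO, or 40.3, 36.4 and 76.1 CPM against 38.4, 58.0 and 79.2 CPM. Replicate 3 was the highest of both genotypes and the groups overlapped, with a log2 fold change of 0.20 (SE 0.35). PDE3A had 0, 0 and 6 counts in the HAP1 libraries against 2, 0 and 9 in HELLS KO, too few to test.

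The genes of the rolipram-insensitive enzymes had overlapping libraries in the HAP1 and HELLS KO groups. PDE8A had 137, 137 and 153 CPM in HAP1 and 123, 158 and 157 CPM in HELLS KO. The libraries of the genotypes overlapped, and the log2 fold change was 0.03 (SE 0.13). PDE7A had 60.2, 56.0 and 81.7 CPM in HAP1 and 60.1, 67.0 and 78.7 CPM in HELLS KO, which gave 0.06 (SE 0.19) on the log2 scale. PDE8B had 6.82, 8.88 and 11.0 CPM in HAP1 and 9.69, 8.82 and 11.9 CPM in HELLS KO, with overlapping groups and a log2 fold change of 0.19 (SE 0.24). Across the leave-one-out fits, the fold changes of PDE4A, PDE3B, PDE7A and PDE8A took either sign.

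**Figure D2:**
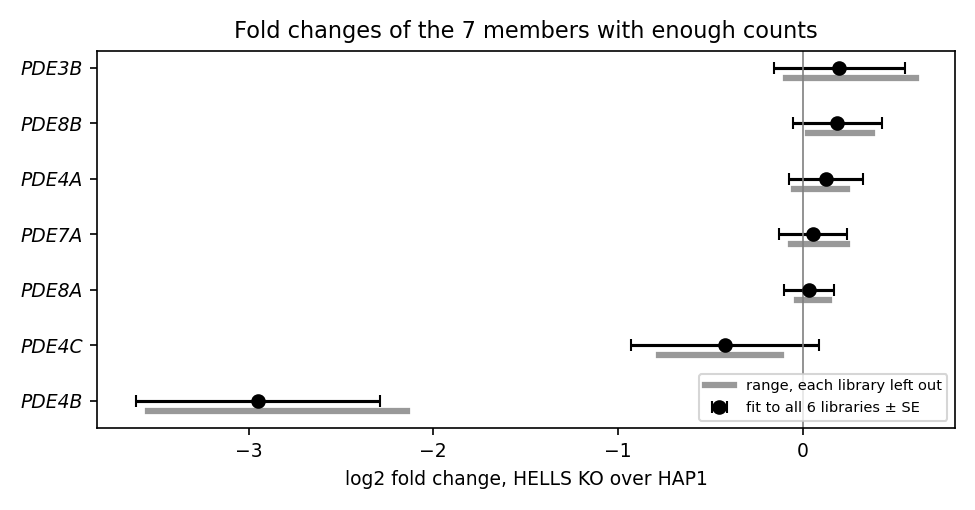
Log2 fold change of HELLS KO over HAP1 for the 7 members that passed the filter, with points and bars for the edgeR estimate ± SE from 6 libraries and grey bars for the range as each library was left out. PDE4B lies at -2.95, and the other 6 genes lie between -0.42 and 0.20.

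Read pairs of several members could in part be assigned to other genes. PDE4B shared 0% of its 31-base stretches with another gene's annotated transcripts, and the 2 genes that overlap it, PDE4B-AS1 and RNU4-88P, had 0 counts in every library. PDE4C shared 72.0% of its stretches and PDE8B 51.4%, nearly all with a readthrough gene of the annotation in each case. Neither of those readthrough genes is a row of the count table, so they took no counts from PDE4C or PDE8B. Reads of readthrough transcripts may be counted within PDE4C and PDE8B, so their values stay uncertain. PDE4A overlaps CDC37, PDE7A overlaps MTFR1 and PDE8B overlaps WDR41, all protein-coding genes of the opposite strand, and the strand setting of the counting was not given in the sources used here.

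Levels of different members were compared per length in FPKM. In HAP1 the order of the means was PDE8A at 17.8 ± 1.05, PDE7A at 8.76 ± 1.76, PDE4A at 6.18 ± 1.38, PDE3B at 4.28 ± 1.81, PDE8B at 1.26 ± 0.285, PDE4B at 0.644 ± 0.464 and PDE4C at 0.116 ± 0.0531 FPKM (SD, n = 3). PDE4D and PDE3A followed at under 0.05 FPKM in every library. Libraries of neighbours in this order overlapped for PDE4A and PDE3B, for PDE8B and PDE4B, and for PDE4D and PDE3A, and the other neighbours did not overlap. In HELLS KO the first 5 places were held by the same genes in the same order, and PDE4B, at 0.0805 ± 0.050 FPKM (SD, n = 3), came after PDE4C at 0.0848 ± 0.0299 FPKM. There the libraries of PDE4A and PDE3B overlapped, as did those of each pair of neighbours from PDE4C downwards.

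**Figure D3:**
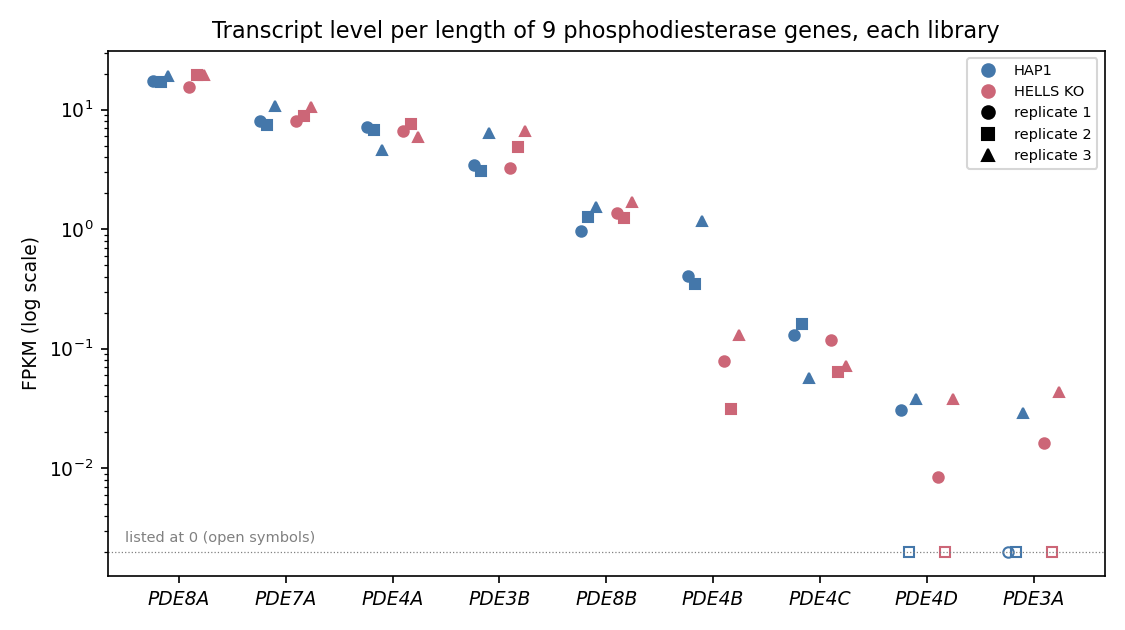
FPKM on a log scale of the 9 members in each library, in order of their mean over 6 libraries, with color for genotype, symbol shape for replicate and open symbols on the dotted line for values listed at 0. PDE4B is the gene for which the 3 HELLS KO points, at 0.0316 to 0.131 FPKM, lie below the 3 HAP1 points, at 0.350 to 1.18 FPKM.

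The summed level of the 4 PDE4 genes was 6.96 ± 0.967 FPKM in HAP1 and 6.88 ± 0.771 FPKM in HELLS KO (SD, n = 3), and the libraries overlapped. PDE4B made up 5.22%, 4.81% and 20.1% of that sum in HAP1 replicates 1, 2 and 3 and 1.16%, 0.410% and 2.13% in HELLS KO. The shares of the genotypes did not overlap, and HAP1 replicate 3 stood apart from the other HAP1 libraries. PDE4A made up 78.3% to 93.0% of the sum in HAP1 and 96.1% to 98.8% in HELLS KO. Over all 9 genes the sum was 39.1 ± 3.94 FPKM in HAP1 and 40.5 ± 5.21 FPKM in HELLS KO (SD, n = 3), of which PDE8A held 45.7% and 44.9% on average. FPKM is a level of RNA, and enzyme activity was not measured here.

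**Figure D4:**
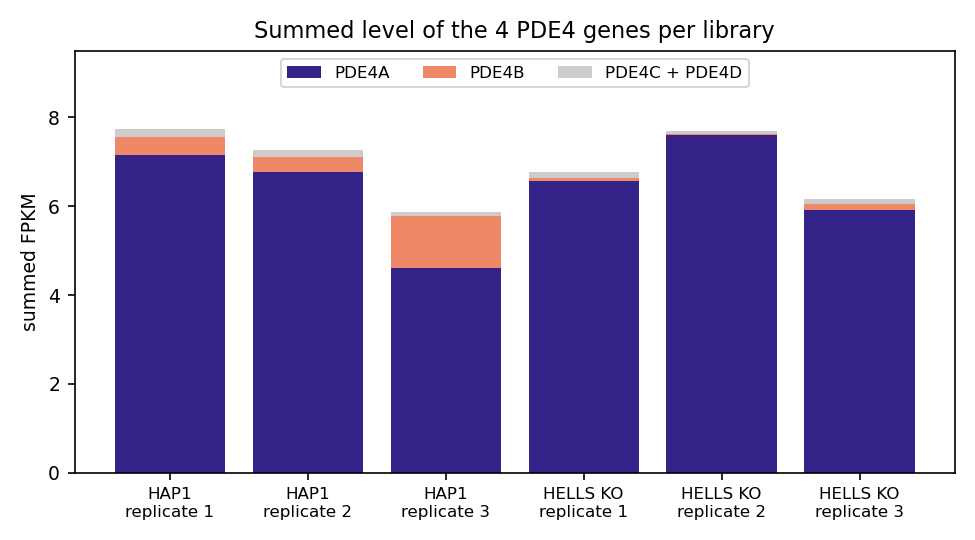
Stacked bars of the FPKM of PDE4A, PDE4B and the sum of PDE4C and PDE4D in each of the 6 libraries. PDE4A fills most of each bar, and the PDE4B segment is tallest in HAP1 replicate 3, at 20.1% of the bar.

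Replicate 3 was then set against replicates 1 and 2 within each genotype. PDE4B in replicate 3 was 3.17 times the mean of replicates 1 and 2 in HAP1 and 2.38 times in HELLS KO, in CPM. Of all tested genes, 1.48% had a ratio at least as high in HAP1 and 1.79% in HELLS KO. PDE4B was selected on this difference, so its place among all genes is no test. PDE3B was 1.99 and 1.64 times higher in replicate 3, and PDE7A 1.41 and 1.24 times. PDE4A was lower, at 0.669 and 0.828 times. In the edgeR fit with the batch term, the log2 difference of replicate 3 was 1.54 (SE 0.28) for PDE4B, 0.85 (SE 0.15) for PDE3B, 0.40 (SE 0.08) for PDE7A and -0.42 (SE 0.11) for PDE4A. Over all tested genes, 49.1% differed between replicate 3 and the others by adjusted p alone. Replicate 3 also had the greater depth, and the parts of batch, depth and culture cannot be told apart. The direction of PDE4B between genotypes was the same within replicate 3 and within replicates 1 and 2, where the log2 fold change was -2.76.

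PDE4B lies on chromosome 1, and the protein-coding genes within 1 Mb of it were examined for a difference of their own. Of 15 such genes 10 were tested, and edgeR called 0 of them, beside 2.22% of all genes, with 3 at an unadjusted p under 0.05, beside 6.59%. The replicate block called 2, beside 3.51% of all genes, and DESeq2 called 1, beside 2.6%. LEPR, the leptin receptor, 151 kb before PDE4B, had 51, 49 and 168 counts in the HAP1 libraries against 10, 24 and 77 in HELLS KO. Its libraries did not overlap in CPM, and its log2 fold change was -1.33 (SE 0.55, edgeR adjusted p = 0.70, and 0.039 with the replicate block). IL12RB2, a subunit of the interleukin 12 receptor, 933 kb after it, had 33, 47 and 74 counts in the HAP1 libraries against 13, 17 and 22 in HELLS KO. The log2 fold change was -1.56 (SE 0.32, adjusted p = 0.067, 0.024 with the block and 0.018 by DESeq2). AK4, an adenylate kinase of mitochondria, had a log2 fold change of -0.64 and DNAI4, a dynein intermediate chain, one of -0.50, and both had groups that did not overlap. JAK1, RAVER2, DNAJC6, LEPROT, MIER1 and SLC35D1 lay between -0.13 and 0.29 with overlapping groups.

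The 5 genes whose log2 CPM followed PDE4B most closely over the 6 libraries, of 15234 candidates, were AMBN (Pearson r = 0.994), DUSP6 (0.990), LIPH (0.986), CA2 (0.982) and CYP26A1 (0.982). These values describe 6 libraries that share genotype, batch and depth. DUSP6, a phosphatase of ERK, had 33, 33 and 160 counts in the HAP1 libraries against 14, 6 and 35 in HELLS KO, and like PDE4B it was highest in replicate 3 of each genotype. AMBN had 526, 529 and 1257 counts in the HAP1 libraries against 316, 253 and 599 in HELLS KO. The genes were picked for their likeness to PDE4B, so no p-value is given for them. Among the other members, r with PDE4B ran from -0.70 for PDE4A to 0.53 for PDE4D.

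Other genes of the cyclic AMP pathway were described from 10 lists with 136 genes, of which 135 were matched and 92 tested. Of these, 0 were called higher in HELLS KO, beside 1.5% of all genes, and 2 were called lower, beside 0.72%. The count at an unadjusted p under 0.05 was 16, beside 6.59% of all genes. The median log2 fold change of the 92 genes was -0.02, and that of all genes was 0.01. With the replicate block 1 gene was called higher and 4 lower, beside 2.03% and 1.49% of all genes. With DESeq2 1 was called higher and 5 lower, beside 1.65% and 0.947%.

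Of the other phosphodiesterases, edgeR called 1 of 9 tested genes, beside 2.22% of all genes. An unadjusted p under 0.05 was found for 3 of the 9, beside 6.59% of all genes. PDE9A, whose enzyme hydrolyses cyclic GMP, had 289, 326 and 291 counts in the HAP1 libraries against 70, 58 and 59 in HELLS KO. In CPM, PDE9A had 20.3, 23.7 and 12.1 in HAP1 against 4.81, 4.06 and 2.42 in HELLS KO. Every HAP1 library lay above every HELLS KO library, and PDE9A fell by 2.32 on the log2 scale (SE 0.36, edgeR adjusted p = 0.018). The call was lost when HAP1 replicate 1 or 2 or HELLS KO replicate 1 or 2 was left out, with an adjusted p of 0.067, 0.055, 0.058 and 0.11. PDE1B, a phosphodiesterase activated by calmodulin, had 76, 49 and 69 counts in the HAP1 libraries against 161, 126 and 187 in HELLS KO. Its groups did not overlap either, in the opposite direction, at a log2 fold change of 1.23 (SE 0.30, adjusted p = 0.13, and 0.0069 with the replicate block). The most abundant genes of the list, PDE5A, PDE6D and PDE10A, had overlapping groups, at 23.6, 35.7 and 33.2 CPM in HAP1 and 22.3, 32.1 and 44.3 CPM in HELLS KO.

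Among receptors coupled to Gs, edgeR called 1 of 12 tested genes, beside 2.22% of all genes. An unadjusted p under 0.05 was found for 6 of the 12, beside 6.59% of all genes. The median log2 fold change of the 12 was -0.47, and 2 of them lay above 0, beside 52.0% of all genes. HTR7, a serotonin receptor, had 66, 50 and 119 counts in the HAP1 libraries against 18, 24 and 28 in HELLS KO. The groups did not overlap, and HTR7 fell by 1.71 on the log2 scale (SE 0.30, edgeR adjusted p = 0.031). Its call was lost whichever of the 6 libraries was left out, with an adjusted p of 0.063 to 0.13, and in replicates 1 and 2 alone, at 0.081. MC4R, a melanocortin receptor, had 12, 12 and 18 counts in the HAP1 libraries against 2, 4 and 2 in HELLS KO. It was not called by edgeR without a batch term (adjusted p = 0.11) but was called with it (adjusted p = 0.035). Neither the replicate block (adjusted p = 0.063) nor DESeq2 (0.21) called MC4R, and its edgeR adjusted p was 0.14 to 0.44 as single libraries were left out. ADORA2B, GIPR and PTH1R, the most abundant receptors of the list, had overlapping groups.

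The enzymes and effectors between receptor and nucleus were not called in either direction. Tested were 6 adenylyl cyclases, 7 G protein alpha subunits and 9 subunits and inhibitors of protein kinase A. The other lists had 13 A-kinase anchors, 9 other effectors and 10 partners of PDE4 proteins. In each list edgeR called 0, beside 2.22% of all genes. In this order 1, 0, 0, 1, 0 and 1 had an unadjusted p under 0.05, beside 6.59% of all genes. Neither the replicate block nor DESeq2 called any, beside 3.51% and 2.6% of all genes. Nothing is read from a count of 0 in lists of this size. The cyclases ADCY9 and ADCY3 had 137 and 107 CPM in HAP1 and 131 and 104 CPM in HELLS KO. GNAS, which encodes the stimulatory alpha subunit, had 234 and 231 CPM. PRKACA, the catalytic subunit alpha of protein kinase A, had 135 and 130 CPM. The anchor AKAP12 had 333 ± 26.9 CPM in HAP1 and 295 ± 64.6 CPM in HELLS KO (SD, n = 3), and its groups overlapped.

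Of 9 tested genes known as targets of the factor CREB, edgeR called 0, beside 2.22% of all genes. An unadjusted p under 0.05 was found for 4 of them, beside 6.59% of all genes. The replicate block called 2 lower, EGR1 and FOS, beside 1.49% of all genes. DESeq2 called 3 lower, EGR1, FOS and FOSB, beside 0.947%. FOSB had 21.2, 18.3 and 6.42 CPM in HAP1 against 4.67, 6.51 and 6.69 CPM in HELLS KO. The groups of FOSB thus overlapped, and it was not lower in replicate 3 (DESeq2 log2 fold change -1.36, adjusted p = 0.032). EGR1, an immediate early transcription factor, had 1886, 1660 and 1442 counts in the HAP1 libraries against 603, 701 and 731 in HELLS KO. Its groups did not overlap, and the log2 fold change was -1.38 (SE 0.32, adjusted p = 0.11, and 6.6e-04 with the replicate block). FOS, which is also an immediate early factor, had 825, 792 and 707 counts in the HAP1 libraries against 356, 342 and 395 in HELLS KO. In CPM, FOS had 58.0, 57.6 and 29.5 in HAP1 against 24.5, 23.9 and 16.2 in HELLS KO, with replicate 3 the lowest of each genotype. The log2 fold change of FOS was -1.17 (SE 0.30, edgeR adjusted p = 0.17, and 0.0012 with the block). Without HAP1 replicate 3 both were called by edgeR, at an adjusted p of 0.0077 for EGR1 and 0.015 for FOS. NR4A2, a nuclear receptor named after its values were seen, had 352, 343 and 748 counts in the HAP1 libraries against 701, 764 and 1285 in HELLS KO, a log2 difference of 0.93 (SE 0.15, adjusted p = 0.022) that lay under the fold threshold. NR4A2 was called higher without HAP1 replicate 3, at 1.05 (adjusted p = 0.013), and in replicates 1 and 2 only, at 1.01 (adjusted p = 0.014), and its adjusted p was 0.064 to 0.15 when any of the other 5 libraries was left out. Of the 8 CREB factors and coactivators, edgeR called 0 and 0 had an unadjusted p under 0.05, beside 2.22% and 6.59% of all genes. CREB1, CREBBP and EP300 had overlapping groups.

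**Figure D5:**
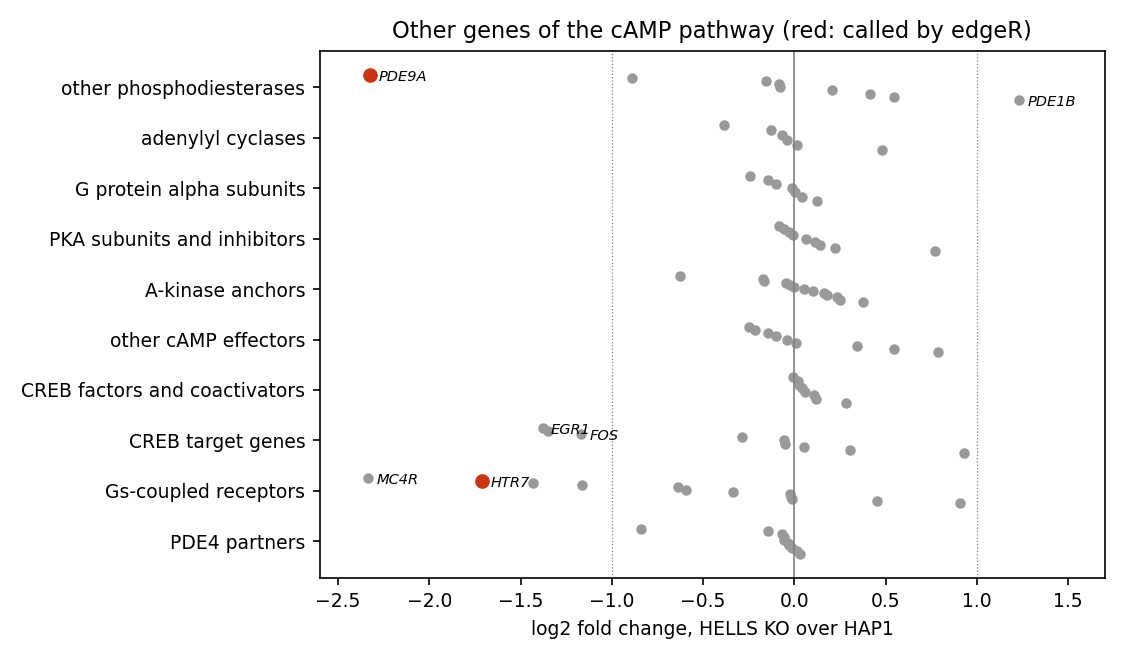
Log2 fold change of HELLS KO over HAP1 for the 92 tested genes of the 10 lists, one point per gene, sorted within each list, with dotted lines at the threshold of 1 in each direction. PDE9A and HTR7, in red, are the genes called by edgeR, and the named gray points at an absolute value of at least 1 have libraries that do not overlap.

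Some cell type markers were also lower in HELLS KO, and others were not. The summed level of the 11 blood cell markers was 21.5 to 40.3 CPM in HAP1 and 3.85 to 7.39 CPM in HELLS KO. Most of it was KIT, the receptor of stem cell factor, with 319, 270 and 933 counts in the HAP1 libraries against 32, 40 and 138 in HELLS KO, which fell by 2.90 on the log2 scale (SE 0.43, edgeR adjusted p = 0.015). KIT lost its call without HELLS KO replicate 1 or 2, at an adjusted p of 0.069 and 0.11. CD33, the other blood cell marker tested, had overlapping groups and a log2 fold change of 0.12. The 4 epithelial markers summed to 101 to 145 CPM in HAP1 and 48.3 to 65.0 CPM in HELLS KO, with EPCAM lower by a log2 fold change of -4.88 and KRT8 by -2.61 (edgeR adjusted p = 0.0015 for each). KRT18 had overlapping groups and a log2 fold change of -0.19, and CDH1 had 0 to 6 counts. KRT8 overlaps KRT18 in the annotation, and reads in the shared stretch are of uncertain origin. The 3 lymphocyte and monocyte markers summed to 1.83 to 3.86 CPM against 0.140 to 1.79 CPM, and the 5 fibroblast markers to 37.3 to 78.6 CPM against 36.8 to 51.0 CPM. The part of these markers in the PDE4B difference was not tested.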

How the data were processed

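From total RNA, the authors made directional libraries, sequenced them in pairs and aligned them with STAR 2.7.3a to GRCh38. They kept reads that were no duplicates and had a mapping quality from 20 upwards, counted them per gene with featureCounts 2.0.6, and deposited raw counts and FPKM values (versions per the submitters' processing notes). The annotation release and the strand setting were not given in the sources used here. The FPKM table covers the 24956 genes with more than 10 counts in total, and 100% of its values were rebuilt from the counts within 0.1%.

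Libraries were grouped by the sample labels. The replicates are described as biological, and p-values measure the spread between these libraries of 1 HAP1 stock and 1 HELLS KO clone. Of the identifiers, 56321 were matched to GENCODE release 44, which gave symbols and coordinates. The genotypes were compared by the quasi-likelihood test of edgeR 4.0.16 (R 4.3.3) without covariates, after filterByExpr and TMM, with Benjamini-Hochberg adjustment over all tested genes. CPM is TMM-scaled. The comparison was repeated with DESeq2 1.42.0, without the filter, with upper-quartile normalization, at least 10 counts in every library, a replicate block, a batch term, each library left out, replicates 1 and 2 only, and limma 3.58.1 on log2(FPKM + 1) and log2(FPKM + 0.1). The test of replicate 3 and the intervals on read pairs were added after seeing the data. The steps were tested on simulated data that held no difference between replicate 3 and the other replicates.

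The deviations from the genotype mean of libraries with the same replicate number correlated across genes at 0.42, 0.20 and 0.78. Across numbers, the highest value was 0.59, for HAP1 replicate 2 with replicate 1 of HELLS KO. HAP1 replicate 1 with replicate 2 of HELLS KO had 0.33. The highest value of all was that of replicate 3 in both genotypes, which was treated as a batch of its own. The numbers are not shown to pair replicates 1 and 2. The main comparison has no replicate term. The fit with the replicate block treats libraries of the same number as pairs, also for replicates 1 and 2.

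The members, the pathway lists and the markers were chosen with earlier results of these data known. Named pathway genes are those called, those that moved by 1 or more on the log2 scale with groups that do not overlap, and the 3 of highest CPM in each list. Genes like PDE4B are the 5 of highest Pearson r on log2 CPM (prior count 2) with a mean of at least 1 CPM. The promoter search used RefSeq starts, left out PDE7A and held no window for PDE3B.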

Additional observations from a re-analysis of the deposited data

How the results depend on the processing

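PDE4B was lower in HELLS KO under every alternative run, at a log2 fold change of -3.55 to -2.14 as single libraries were left out and of -0.57 on log2(FPKM + 1) and -1.91 on log2(FPKM + 0.1), scales that understate changes of low genes; with at least 10 counts in every library it was not tested. The count of called members was 0 and became 1 with DESeq2, the batch term, no filter, the replicate block and replicates 1 and 2 only, and it was 0 in each fit that left out a library.

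Pathway genes called higher numbered 0, and 1 with DESeq2, the batch term, the block and replicates 1 and 2 only (0 to 1 leaving out a library). Those called lower numbered 2, but 5 with DESeq2, the batch term and replicates 1 and 2 only, 4 with no filter and with the block, 0 with at least 10 counts in every library and with limma on each FPKM scale, and 0 to 5 leaving out a library.

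Over all genes, 269 were called higher and 129 lower. DESeq2 called 426 and 244, no filter 415 and 200, at least 10 counts 29 and 48, limma on log2(FPKM + 1) 146 and 52, and 157 and 54 with a mean of at least 0.1 FPKM. The batch term called 285 lower, the block 267 and replicates 1 and 2 only 219. Leaving out a library gave 112 to 273 higher and 40 to 176 lower. The causes were not tested. Among the named pathway genes and neighbours of PDE4B, the block changed no call other than those given beside the result, and no called fold change changed sign. Fold changes near 0 took either sign, such as those of EP300, RAPGEF4 and DNAJC6 with the block.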
